A study of Mus musculus with 7 samples.

Results

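The solute carriers are the large group of membrane proteins, named by family number and member, that move amino acids, sugars, ions, metals, vitamins and metabolites across cell and organelle membranes. Their transcripts were examined in RNA sequencing of CD150-negative mouse cells, labelled as haematopoietic stem cells (HSC), from strain C57/B6. The study compared 4 wild-type (WT) libraries with 3 libraries from mice in which chromosome band 5G2 carries a deletion (5G2del), a segment that corresponds to human 7q22. The members were chosen by symbol and by level: every row of the deposited table whose mouse symbol begins with Slc, a family number and a letter, and whose mean over the 7 libraries is over 2 on the log2 CPM scale (CPM, library counts scaled to a common size). This rule used the level of a gene over both groups and not the difference between them. It kept 157 genes of the 16760 listed, from 235 rows with such a symbol, and 78 rows lay at or below the level. Just inside it were Slc35f6, Slc12a9 and Slc19a2, with means of 2.03, 2.05 and 2.06 log2 CPM, and just outside it Slc35d2, Slc2a4rg-ps and Slc16a11, with 1.96, 1.86 and 1.86. A mean over both groups can keep a gene through the group in which it is high, so members near the level may owe their place to 1 group. Among them, Slc12a9, Slc25a35 and Slc9a7 had 5G2del means of 1.56, 1.77 and 1.82 log2 CPM and were kept through WT. Slc35f6, with 5G2del values of 1.28, 1.60 and 2.50 (A, B, C), also had a 5G2del mean below the level. Slc19a2, Slc29a2 and Slc9a3r2 had WT means below the level and were kept through 5G2del.

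Both groups share the strain, the labelled cell type and the CD150-negative state, and the labels give no treatment, age or other allele. The extent, ends and copy number of the deletion, and whether each library came from its own animal, are not stated in the labels. The p-values below therefore reflect how far these libraries scatter, and some of that scatter may be technical. The table names the group of each library but not its sample number, so the 3 and 4 libraries are lettered within their group (5G2del-A, WT-A and so on) in the order of the table. Of the 7 markers of early blood progenitors listed for the check of the label, Kit, Cd34, Flt3 and Ly6a lay at or above 5.91 log2 CPM in every library. Procr lay between 5.00 and 5.70 and Cd48 between 2.52 and 4.94. Slamf1, which encodes CD150, was low, between -2.22 and 0.65. These levels do not settle which early progenitors the cells are. Slamf1 was higher in every 5G2del than in every WT library, with a log2 fold change of 1.66 ± 0.75 (SE; limma unadjusted p = 0.0504). The libraries held 37930174 (WT-B) to 52194274 (WT-A) expected counts over the listed genes. The sizes by which the CPM were divided ran from 34865420 to 55716549 and lay below the listed counts in 5G2del-C and WT-C, so they are scaled sizes and not plain totals. Of all members the smallest value in any library was 50 expected counts, far above the floor of 3 counts.

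Solute carriers work as uniporters, as symporters that draw on a sodium or proton gradient, or as exchangers, and most are held in 1 membrane: the cell surface, the mitochondrial inner membrane, the lysosome or the Golgi. Blood stem and progenitor cells depend on several of them, among them carriers of amino acids that feed the growth kinase mTORC1, carriers of glycine and iron for haem, and carriers of folate and thiamine whose loss in people causes anaemia. Of the 157 members, 153 were classed as transporters, from 43 families, by symbol and family number and not by the activity of each. The other 4 carry the symbol stem and were set apart as not transporters. The members lie on 20 chromosomes. By gene identifier all 157 were found in GENCODE M21 (mm10), where 1 symbol differed (Slc49a4, listed as Dirc2). Reads that fall where 2 genes overlap cannot be assigned with certainty, and 28 members share exon bases with another listed gene, 4 of them over more than 20% of their length: Slc39a7, Slc24a5, Slc25a35 and Slc16a6.

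No solute carrier rose or fell past the threshold between 5G2del and WT. By limma-trend, a linear model whose prior variance follows the expression level, 0 of the 157 members had a Benjamini-Hochberg adjusted p under 0.05 over all genes, where 0 of 16760 listed genes did (0.0%), and the lowest adjusted p of a member was 0.989. At an unadjusted p under 0.05 there were 8 members, 6 higher and 2 lower in 5G2del, or 3.82% and 1.27% of the members. Over all listed genes 1.68% were higher and 2.24% lower by that rule, and over the 10358 genes with a mean above the same level 1.84% and 2.16%. With so few members, the share of higher ones rests on 6 genes, of which 4 had a mean below 3 log2 CPM, and was not tested against the background. Every 5G2del library lay above every WT library for 7 members and below for 2, and the same held for 2.97% and 2.93% of the genes above the level. The count of lower members was 4 without 5G2del-A and 5 without WT-B. Limma with voom weights and limma without the trend each gave 0 members past the adjusted threshold. The authors' deposited results equal the fit with voom weights and are not a separate check. In that voom fit Slc7a8, Slc16a12 and Slc22a17 also had an unadjusted p under 0.05 (limma with voom weights, 0.0407, 0.0435 and 0.0449).

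Differences were small for most members. The median log2 fold change (5G2del over WT, so that positive values are higher in 5G2del) was 0.028 over the members, 0.030 over all listed genes and 0.025 over genes above the level. Of the 157, 83 had a value above 0 and 74 below, and 96 (61.1%) lay within 0.25 of 0, against 65.1% of genes above the level. Only Slc7a8 and Slc16a12 differed by more than 1 on this scale. The median standard error of a member's log2 fold change was 0.27, and differences of that size could not be told from the spread between libraries. Slc7a8, whose difference was 2.19 times its standard error, still had a limma-trend unadjusted p of 0.0511. A member with the median standard error would thus need a difference well above 0.27 to reach an unadjusted p of 0.05.

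**Figure D1:**
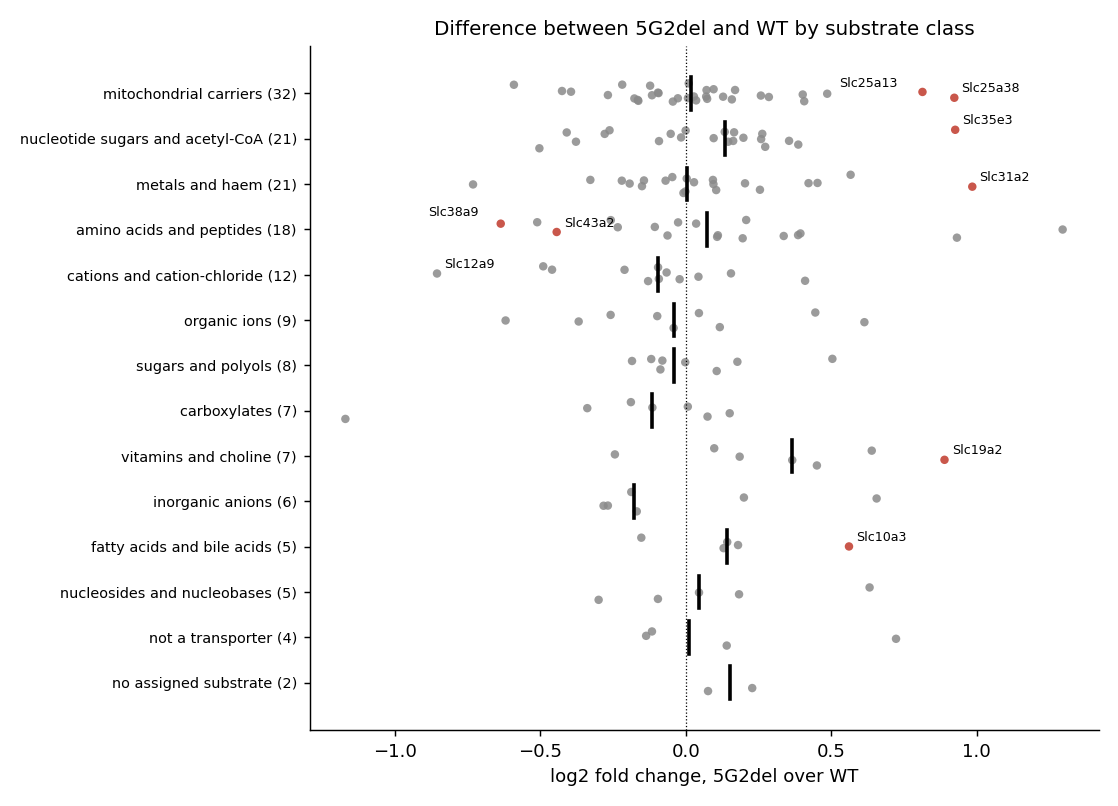
Difference between groups for the 157 members by substrate class, with the number of members in brackets. Each point is 1 gene at its log2 fold change, 5G2del over WT (x axis), black bars are class medians, and red points are the 8 genes with an unadjusted limma-trend p under 0.05, of which 6 lie right of 0 and 2 left; Slc12a9 is labelled as the member inside the lowered stretch of chromosome 5.

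One member lies inside the stretch of chromosome 5 that was lowered in an earlier analysis of these data. Slc12a9 (ENSMUSG00000037344; mm10 chr5:137314558-137333597, minus strand) encodes a relative of the cation-chloride cotransporters that is known to bind other members of that family. It was at 2.45, 1.32 and 0.91 log2 CPM in the 5G2del libraries (A, B, C), against 2.26, 2.46, 2.43 and 2.52 in the WT libraries (A, B, C, D). 5G2del-B and 5G2del-C lay below every WT library, while 5G2del-A lay among the WT values, so the groups overlapped. Summed neutrophil and monocyte markers were also highest in 5G2del-A, at 4460.2 CPM, and their part in this value was not tested. The log2 fold change was -0.85 ± 0.42 (SE), with limma-trend unadjusted p = 0.0659, and it was -1.30 without 5G2del-A and -0.53 without 5G2del-C. The 5G2del mean of Slc12a9, 1.56, lay below the level for membership, so the gene was kept through its WT values. All 28 measured genes from Rasa4 to Zan, Slc12a9 among them, had lower means in 5G2del, with a median of -0.87. The ends of that stretch had been set from these fold changes, so the place of Slc12a9 in it is a description. The other 10 members on chromosome 5 lie outside it, and over all 11 the median was -0.0076, with 6 below 0.

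The member with the lowest p was Slc25a13 (ENSMUSG00000015112; mm10 chr6:6041218-6217173, minus strand), which encodes citrin, a mitochondrial carrier that exchanges aspartate for glutamate as part of the malate-aspartate shuttle. It was at 3.96, 3.83 and 4.30 log2 CPM in the 5G2del libraries (A, B, C), against 3.37, 3.57, 2.84 and 3.09 in the WT libraries (A, B, C, D). All 3 5G2del libraries lay above all 4 WT libraries, with a log2 fold change of 0.81 ± 0.26 (SE) and limma-trend unadjusted p = 0.00958. With 1 library left out the value ran from 0.68 to 0.93. Its paralog Slc25a12, which carries out the same exchange, had 0.0079 ± 0.17 (SE) and ran from -0.085 (without WT-B) to 0.086 (without 5G2del-B); it was picked for this comparison after the values were seen, and the difference between the paralogs was not tested.

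The start windows of these 2 genes, Slc12a9 and Slc25a13, are shown because 1 lies in the lowered stretch and the other had the lowest p, and because both hold the E-box CACGTG, the site read by MYC and by the lysosomal regulators TFEB and TFE3. Each window runs 5′ to 3′ from 250 bases before the gene's RefSeq start (build GRCm38.p6) to 50 bases after it, and capitals mark the E-box. The window of Slc12a9 is chr5:137333533-137333832 and that of Slc25a13 chr6:6217124-6217423, both on the minus strand.
Slc12a9: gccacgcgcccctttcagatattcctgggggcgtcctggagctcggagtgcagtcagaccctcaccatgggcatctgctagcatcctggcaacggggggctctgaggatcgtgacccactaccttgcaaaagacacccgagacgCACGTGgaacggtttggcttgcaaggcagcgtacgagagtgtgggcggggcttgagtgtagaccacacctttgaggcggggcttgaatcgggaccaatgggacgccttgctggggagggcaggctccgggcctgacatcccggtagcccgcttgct
Slc25a13: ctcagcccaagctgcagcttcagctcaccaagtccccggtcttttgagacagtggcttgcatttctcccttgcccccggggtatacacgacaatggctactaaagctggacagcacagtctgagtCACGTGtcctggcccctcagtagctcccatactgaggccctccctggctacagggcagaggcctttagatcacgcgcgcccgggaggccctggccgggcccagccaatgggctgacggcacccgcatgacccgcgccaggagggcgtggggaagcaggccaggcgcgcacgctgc
The E-box begins 106 bases before the start in Slc12a9 and 125 in Slc25a13. A window was found for 118 members by symbol, 1 per gene, and 16 of them (13.6%) hold CACGTG, which reads the same on both strands, as do 7.24% of the 27025 windows of all genes. Of the 8 members with an unadjusted p under 0.05, 7 have a window and 3 of these hold it, Slc25a13, Slc31a2 and Slc35e3. The amino acid response motif TGATGNAA, read by ATF4, was found on either strand in 3 members' windows (2.54%) and in 4.06% of all windows. The windows of all genes include genes not listed here and were not limited to genes above the level, as the members were. The shares are therefore not like for like, and their difference was not tested. A match describes these letters and does not show binding.

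**Figure D2:**
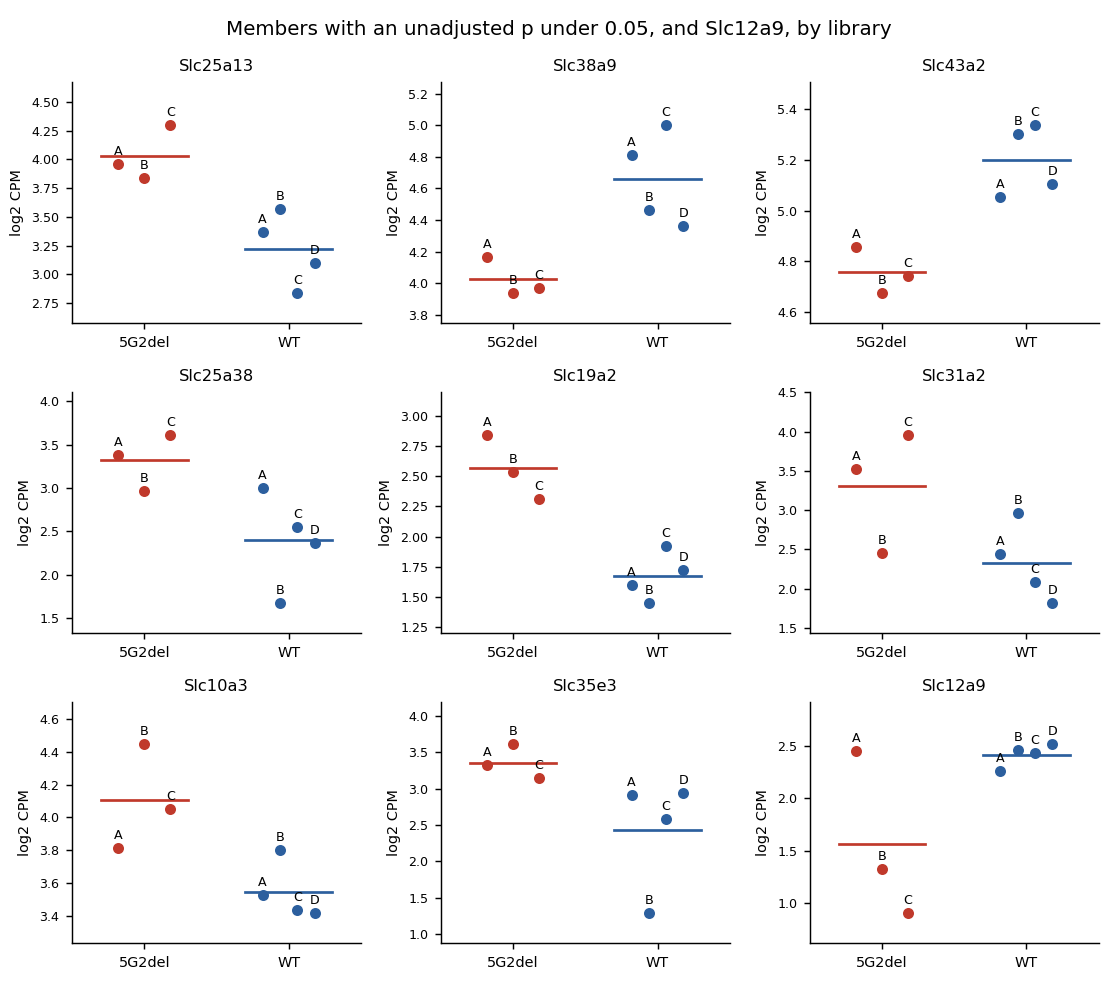
Values of the 8 members with an unadjusted limma-trend p under 0.05, and of Slc12a9, by library. Points are log2 CPM of single libraries (y axis, scaled to each gene), letters name the library and bars are group means; the groups do not overlap for 6 of these 9 genes, and 5G2del-A lies among the WT values for Slc12a9.

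Levels between genes were compared as CPM per kb of annotated exon (geometric mean over the 7 libraries), since longer transcripts gather more reads. On this scale the members ran from 0.480 for Slc35f6 to 173 for Slc25a5, with a median of 3.03 against 4.88 for all genes above the level. The 5 highest were Slc25a5 and Slc25a4, the ADP/ATP exchangers of the mitochondrial inner membrane, at 173 and 30.6, Slc25a3, the mitochondrial phosphate carrier, at 42.3, Slc25a11, the oxoglutarate carrier of the malate-aspartate shuttle, at 28, and the scaffold gene Slc9a3r1 at 21. Slc25a5 has near-identical processed copies in the genome, and reads shared with them make its level uncertain. Pearson correlations between libraries over the members ran from 0.816 to 0.949; these are across genes, which are not independent replicates.

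**Figure D3:**
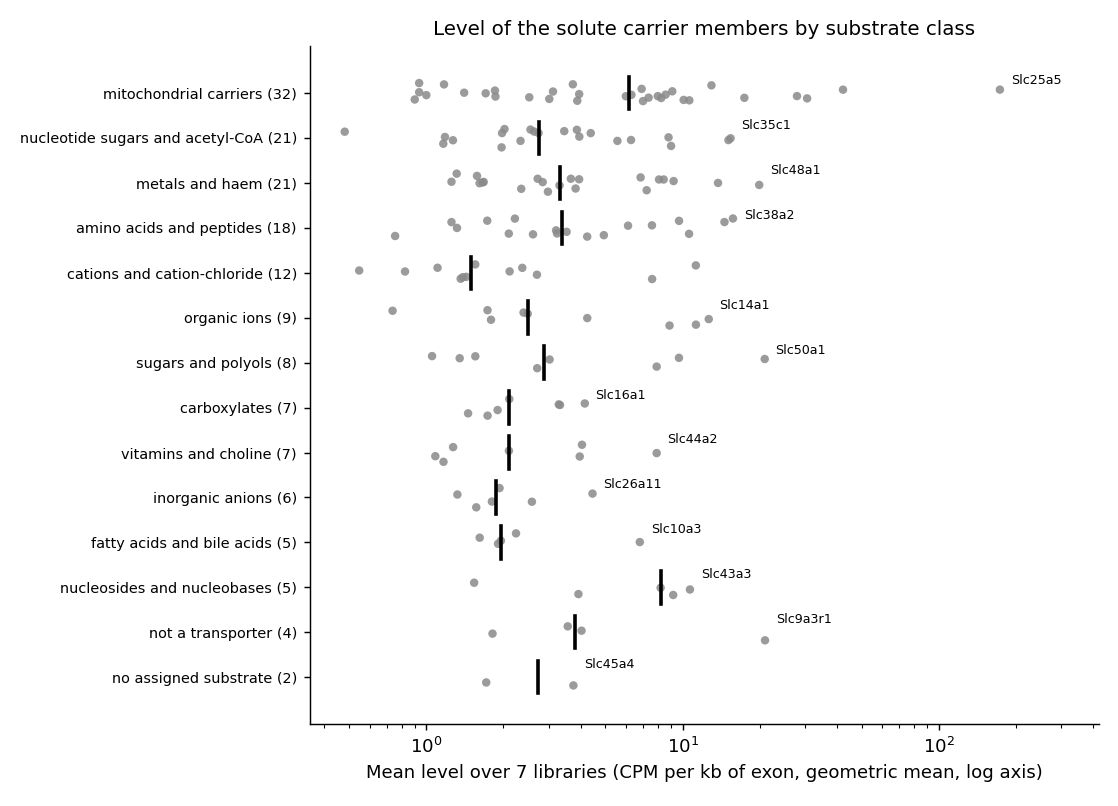
Level of the 157 members by substrate class, with the number of members in brackets. Each point is 1 gene at its geometric mean CPM per kb of exon over the 7 libraries (x axis, log scale), black bars are class medians, and the highest member is labelled in all classes but 1; Slc25a5 lies far to the right and nucleoside and mitochondrial carriers have the highest class medians.

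The class of mitochondrial carriers was set by family number (Slc25) and not by the site of each member. It was the largest class with 32 members, 18 with a log2 fold change above 0 and 14 below (median 0.019, range -0.59 to 0.92). Leaving out each library in turn took the number above 0 from 14 to 19. The median then ran from -0.040 (without 5G2del-C) to 0.090 (without 5G2del-A). The median level of the members was 6.16 CPM per kb. The 4 best expressed differed between the groups by less than the SD over libraries: Slc25a5 was at 8.25 ± 0.28 log2 CPM over 5G2del (SD, n = 3) against 8.08 ± 0.29 over WT (SD, n = 4), Slc25a3 at 7.92 ± 0.11 and 7.84 ± 0.10, Slc25a4 at 6.21 ± 0.33 and 6.14 ± 0.12, and Slc25a11 at 5.91 ± 0.17 and 5.88 ± 0.23. Beside Slc25a13, 1 member had an unadjusted p under 0.05. Slc25a38 (mm10 chr9:120110374-120124504, plus strand), which brings glycine into the mitochondrion for the first step of haem synthesis, was at 3.38, 2.96 and 3.62 log2 CPM in the 5G2del libraries (A, B, C), against 3.00, 1.68, 2.55 and 2.37 in the WT libraries (A, B, C, D). WT-A lay just above 5G2del-B and WT-B far below the rest, and the log2 fold change was 0.92 ± 0.36 (SE) (limma-trend unadjusted p = 0.0255). Markers of red cells, 9 of 10 listed being measured and all with a log2 fold change below 0, summed to 39.2 to 103 CPM in 5G2del and 79.1 to 278 in WT, highest in WT-B. Their part in the value of Slc25a38 was not tested.

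Amino acid and peptide carriers had 18 members, 10 with a log2 fold change above 0 and 8 below (median 0.072, range -0.64 to 1.30); leaving out each library in turn took the number above 0 from 8 to 11 and the median from -0.074 (without 5G2del-B) to 0.13 (without 5G2del-A). The highest per kb was Slc38a2, the sodium-coupled neutral amino acid carrier SNAT2, at 15.7 CPM per kb and at 7.24 ± 0.048 log2 CPM over 5G2del (SD, n = 3) against 7.03 ± 0.27 over WT (SD, n = 4). Both members that were lower at an unadjusted p under 0.05 belong to this class. Slc38a9 (mm10 chr13:112660751-112738749, plus strand), the lysosomal carrier that reports arginine to mTORC1, was at 4.16, 3.94 and 3.97 log2 CPM in the 5G2del libraries (A, B, C), against 4.81, 4.46, 5.00 and 4.36 in the WT libraries (A, B, C, D). The groups did not overlap, with a log2 fold change of -0.64 ± 0.22 (SE) (limma-trend unadjusted p = 0.0135).

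Slc43a2 (mm10 chr11:75531694-75577575, plus strand), the facilitative carrier LAT4 of branched-chain and aromatic amino acids, was at 4.85, 4.68 and 4.74 log2 CPM in the 5G2del libraries (A, B, C), against 5.05, 5.30, 5.34 and 5.10 in the WT libraries (A, B, C, D). Its groups did not overlap either, with a log2 fold change of -0.44 ± 0.17 (SE) (limma-trend unadjusted p = 0.0243); 9.18% of its exon bases overlap an opposite-strand transcript, Gm45606. Of the 8 members with an unadjusted p under 0.05, Slc38a9 was the 1 that stayed under it whichever library was left out (largest limma-trend unadjusted p 0.0459). With 1 library left out Slc38a9 ran from -0.73 to -0.52 and Slc43a2 from -0.49 to -0.40. The largest positive difference of all members was that of Slc7a8, the light chain LAT2 of a neutral amino acid exchanger, at 3.18, 3.23 and 3.97 log2 CPM in the 5G2del libraries (A, B, C), against 3.09, 0.28, 2.46 and 2.82 in the WT libraries (A, B, C, D). The log2 fold change of 1.30 ± 0.59 (SE) (limma-trend unadjusted p = 0.0511) came with groups that did not overlap, and it was 0.67 without WT-B. Slc6a15, a sodium-coupled carrier of branched-chain amino acids and proline, was at 2.27, 3.70 and 3.28 log2 CPM in the 5G2del libraries (A, B, C), against 3.12, 1.51, 1.85 and 2.12 in the WT libraries (A, B, C, D), with overlapping groups and a log2 fold change of 0.93 ± 0.46 (SE).

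Vitamin and choline carriers had 7 members, 6 with a log2 fold change above 0 and 1 below (median 0.37, range -0.24 to 0.89); leaving out each library in turn took the number above 0 from 5 to 6 and the median from 0.19 (without 5G2del-B) to 0.43 (without WT-A). The mean over the 7 genes was at 3.95, 4.08 and 3.82 log2 CPM in the 5G2del libraries, against 3.78, 3.41, 3.69 and 3.55 in the WT libraries. Class means were compared for every class, and only those of this class did not overlap between the groups, so it was picked out from many. The class also holds Slc19a2, which passed the level only through its 5G2del values. Without it, in an alternative added after seeing the data, the means of the other 6 were 4.13, 4.33 and 4.07 log2 CPM against 4.15, 3.73, 3.98 and 3.85, and WT-A then lay above 5G2del-A and 5G2del-C. The class is described here with no test.

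Within this class Slc19a2 (mm10 chr1:164249046-164265385, plus strand), a thiamine carrier whose loss in people causes thiamine-responsive megaloblastic anaemia, was at 2.85, 2.54 and 2.31 log2 CPM in the 5G2del libraries (A, B, C), against 1.60, 1.45, 1.93 and 1.73 in the WT libraries (A, B, C, D). The groups did not overlap, and the log2 fold change was 0.89 ± 0.35 (SE) (limma-trend unadjusted p = 0.0260). Its WT values all lay below the level for membership. Slc19a1, the reduced folate carrier of the same family, had 0.37 ± 0.29 (SE) and ran from 0.19 (without 5G2del-B) to 0.68 (without 5G2del-A). Slc52a2, a riboflavin carrier, had 0.64 ± 0.31 (SE) with groups that did not overlap; both are named here for their substrate after the values were seen. The member with the opposite sign was the choline carrier Slc44a1, at -0.24 ± 0.28 (SE), which ran from -0.42 (without WT-B) to -0.046 (without 5G2del-C). Slc44a2, another choline carrier and the highest of the class at 7.92 CPM per kb, was at 6.21 ± 0.31 log2 CPM over 5G2del (SD, n = 3) against 6.02 ± 0.17 over WT (SD, n = 4).

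Metal and haem carriers had 21 members, 11 with a log2 fold change above 0 and 10 below (median 0.0037, range -0.73 to 0.99); leaving out each library in turn took the number above 0 from 9 to 14 and the median from -0.035 (without WT-C) to 0.072 (without 5G2del-C). They included 10 zinc importers of the Slc39 family, with a median log2 fold change of 0.014 that ran from -0.12 (without 5G2del-B) to 0.071 (without 5G2del-C). The 6 zinc exporters of the Slc30 family had a median of 0.17, with 4 above 0, and ran from 0.0053 (without WT-B) to 0.29 (without 5G2del-C). The highest per kb was Slc48a1, which moves haem out of endosomes and lysosomes, at 19.9 CPM per kb and at 5.69 ± 0.088 log2 CPM over 5G2del (SD, n = 3) against 5.84 ± 0.34 over WT (SD, n = 4). Slc48a1 is best known from macrophages. Of 7 listed macrophage and dendritic markers 5 were measured, 3 with a log2 fold change below 0. They summed to 2.78 to 4.29 CPM in 5G2del and 5.25 to 8.64 in WT. The sum was thus small in both groups and lower in every 5G2del than in every WT library. This does not hold for each marker: C1qa and Itgax had log2 fold changes of 1.21 ± 1.54 (SE) and 1.29 ± 1.55 (SE).

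Slc31a2 (mm10 chr4:62262562-62298411, plus strand), a relative of the copper importer Slc31a1, was the one member of the class with an unadjusted p under 0.05. It was at 3.53, 2.45 and 3.96 log2 CPM in the 5G2del libraries (A, B, C), against 2.44, 2.96, 2.09 and 1.82 in the WT libraries (A, B, C, D). 5G2del-A and 5G2del-C lay above every WT library, and 5G2del-B lay level with WT-A and below WT-B. The log2 fold change was 0.99 ± 0.42 (SE) (limma-trend unadjusted p = 0.0370), and that of Slc31a1, named here after its value was seen, was -0.14 ± 0.41 (SE) and ran from -0.46 (without WT-C) to 0.19 (without WT-B). Slc30a6, a zinc exporter of the Golgi, was at 3.11, 2.84 and 1.87 log2 CPM in the 5G2del libraries (A, B, C), against 2.84, 0.81, 2.77 and 2.32 in the WT libraries (A, B, C, D). WT-B was lowest and the groups overlapped, with a log2 fold change of 0.42 ± 0.52 (SE) that ran from -0.037 (without WT-B) to 0.79 (without 5G2del-C).

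Carriers of sodium, potassium, calcium, protons and chloride had 12 members, 3 with a log2 fold change above 0 and 9 below (median -0.093, range -0.85 to 0.41); leaving out each library in turn took the number above 0 from 3 to 6 and the median from -0.17 (without WT-B) to -0.081 (without 5G2del-A). The 6 above 0 were counted without 5G2del-A. The lowest value was that of Slc12a9, given above. Of the 5 sodium-proton exchangers of the Slc9 family, 4 had a value below 0, with a median of -0.21 that ran from -0.40 (without 5G2del-A) to -0.076 (without 5G2del-C).

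Carriers of the Golgi and endoplasmic reticulum for nucleotide sugars and acetyl-CoA had 21 members, 12 with a log2 fold change above 0 and 9 below (median 0.13, range -0.50 to 0.93); leaving out each library in turn took the number above 0 from 10 to 15 and the median from -0.021 (without 5G2del-B) to 0.20 (without 5G2del-C). They supply the donors for protein and lipid glycosylation. The highest was Slc35c1, the GDP-fucose carrier needed to make selectin ligands, at 15.4 CPM per kb and at 5.80 ± 0.21 log2 CPM over 5G2del (SD, n = 3) against 5.54 ± 0.22 over WT (SD, n = 4). Slc35e3 (mm10 chr10:117733679-117746365, minus strand), a family member with no settled substrate, was at 3.32, 3.61 and 3.15 log2 CPM in the 5G2del libraries (A, B, C), against 2.91, 1.30, 2.59 and 2.94 in the WT libraries (A, B, C, D). All 5G2del libraries lay above all WT libraries, with a log2 fold change of 0.93 ± 0.41 (SE) (limma-trend unadjusted p = 0.0450) that was 0.55 without WT-B. Slc35d3, known for a role in platelet dense granules, spread widely at 3.59, 2.74 and 1.46 log2 CPM in the 5G2del libraries (A, B, C), against 3.10, 1.43, 3.33 and 3.58 in the WT libraries (A, B, C, D). 5G2del-C and WT-B were low and the groups overlapped, with a log2 fold change of -0.26 ± 0.58 (SE) that ran from -0.76 (without 5G2del-A) to 0.31 (without 5G2del-C).

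Sugar and polyol carriers had 8 members, 3 with a log2 fold change above 0 and 5 below (median -0.041, range -0.18 to 0.50); leaving out each library in turn took the number above 0 from 3 to 6 and the median from -0.10 (without WT-A) to 0.16 (without WT-B). The 4 facilitative glucose family (Slc2) members had a median of -0.083 that ran from -0.16 (without WT-C) to 0.15 (without WT-B), and Slc2a3 and Slc2a1 were the best expressed of them. The highest of the class per kb was Slc50a1, a sugar carrier of the SWEET family, at 20.9 CPM per kb and at 5.04 ± 0.12 log2 CPM over 5G2del (SD, n = 3) against 4.86 ± 0.58 over WT (SD, n = 4). Slc37a1, a sugar-phosphate carrier of the endoplasmic reticulum, was at 3.98, 3.82 and 3.89 log2 CPM in the 5G2del libraries (A, B, C), against 3.62, 2.55, 3.72 and 3.68 in the WT libraries (A, B, C, D). Its groups did not overlap, but WT-B stood apart from the other WT libraries, and the log2 fold change of 0.50 ± 0.31 (SE) was 0.22 without it. Slc2a8, an intracellular hexose carrier, was at 2.20, 1.32 and 2.50 log2 CPM in the 5G2del libraries (A, B, C), against 1.70, 3.83, 1.13 and 2.11 in the WT libraries (A, B, C, D), with WT-B far above the rest. Its log2 fold change of -0.18 ± 0.60 (SE) turned to 0.36 without WT-B and to 0.16 without 5G2del-B.

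The class of carboxylate carriers was set by family number (Slc16) and not by the substrate of each member. It had 7 members, 3 with a log2 fold change above 0 and 4 below (median -0.11, range -1.17 to 0.15). Leaving out each library in turn took the number above 0 from 1 to 3. The median then ran from -0.21 (without WT-C) to -0.035 (without WT-B). Slc16a1, the lactate and pyruvate carrier MCT1, was the highest at 4.15 CPM per kb and was at 4.20 ± 0.36 log2 CPM over 5G2del (SD, n = 3) against 4.20 ± 0.56 over WT (SD, n = 4), a difference near 0 whose sign changed between settings. Slc16a12, a carrier linked to creatine transport, was at 0.66, 2.66 and 3.24 log2 CPM in the 5G2del libraries (A, B, C), against 3.33, 3.94, 2.83 and 3.33 in the WT libraries (A, B, C, D). It was low in 5G2del-A, and the log2 fold change of -1.17 ± 0.54 (SE) (limma-trend unadjusted p = 0.0530) was -0.41 without that library. Summed neutrophil and monocyte markers were highest in 5G2del-A, at 4460.2 CPM. In WT-A, the highest of the WT libraries at 1498 CPM, Slc16a12 was at 3.33. The part of these markers in its values was not tested.

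Carriers of organic ions, amines and urea had 9 members, 4 with a log2 fold change above 0 and 5 below (median -0.041, range -0.62 to 0.61); leaving out each library in turn took the number above 0 from 3 to 5 and the median from -0.11 (without 5G2del-A) to 0.020 (without WT-B). The highest was Slc14a1, the urea carrier of red cells, at 12.7 CPM per kb and at 5.45 ± 0.36 log2 CPM over 5G2del (SD, n = 3) against 5.82 ± 0.42 over WT (SD, n = 4). Its log2 fold change was -0.37 ± 0.25 (SE) and ran from -0.54 (without WT-B) to -0.18 (without 5G2del-B). The difference was thus larger without WT-B, the library with the highest summed red cell markers, at 278 CPM. The part of these markers in this value was not tested. Slc22a17, described as a receptor for lipocalin-2, was at 3.54, 3.00 and 3.56 log2 CPM in the 5G2del libraries (A, B, C), against 2.58, 2.62, 3.01 and 2.80 in the WT libraries (A, B, C, D). WT-C lay just above 5G2del-B, and the log2 fold change was 0.61 ± 0.28 (SE) (limma-trend unadjusted p = 0.0501).

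The 6 carriers of bicarbonate, phosphate and sulphate split into 2 with a log2 fold change above 0 and 4 below (median -0.18, range -0.28 to 0.66); leaving out each library in turn took the number above 0 from 1 to 3 and the median from -0.25 (without 5G2del-A) to 0.015 (without 5G2del-C). Slc26a11, a sulphate and chloride carrier, was the highest at 4.45 CPM per kb and was at 4.12 ± 0.57 log2 CPM over 5G2del (SD, n = 3) against 3.92 ± 0.38 over WT (SD, n = 4). Slc20a2, the sodium-phosphate cotransporter PiT-2, was at 3.58, 3.16 and 3.51 log2 CPM in the 5G2del libraries (A, B, C), against 2.99, 1.84, 2.83 and 3.36 in the WT libraries (A, B, C, D). WT-D lay above 5G2del-B and WT-B was lowest, and the log2 fold change of 0.66 ± 0.36 (SE) was 0.35 without WT-B.

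The 5 nucleoside and nucleobase carriers had the highest class median level, 8.21 CPM per kb, and 3 with a log2 fold change above 0 and 2 below (median 0.046, range -0.30 to 0.63); leaving out each library in turn took the number above 0 from 2 to 4 and the median from -0.019 (without WT-D) to 0.16 (without WT-A). Slc43a3, a purine nucleobase carrier, was the highest at 10.7 CPM per kb and was at 5.68 ± 0.25 log2 CPM over 5G2del (SD, n = 3) against 5.50 ± 0.40 over WT (SD, n = 4). Slc29a2, the equilibrative nucleoside carrier ENT2, was at 3.02, 2.88 and 1.83 log2 CPM in the 5G2del libraries (A, B, C), against 1.89, 1.84, 1.60 and 2.44 in the WT libraries (A, B, C, D). 5G2del-A and 5G2del-B lay above every WT library and 5G2del-C did not, with a log2 fold change of 0.63 ± 0.40 (SE) that ran from 0.41 without 5G2del-A to 1.00 without 5G2del-C. The WT mean of Slc29a2 lay below the level for membership, so the gene was kept through its 5G2del values.

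The fatty acid and bile acid families had 5 members, 4 with a log2 fold change above 0 and 1 below (median 0.14, range -0.15 to 0.56); leaving out each library in turn took the number above 0 from 3 to 5 and the median from 0.014 (without WT-D) to 0.26 (without 5G2del-B). Slc10a3 (mm10 chrX:74369217-74373349, minus strand), a bile acid family member with no settled substrate, was the highest at 6.81 CPM per kb. It was at 3.82, 4.45 and 4.05 log2 CPM in the 5G2del libraries (A, B, C), against 3.52, 3.80, 3.43 and 3.42 in the WT libraries (A, B, C, D). Every 5G2del library lay above every WT library, 5G2del-A only just above WT-B, with a log2 fold change of 0.56 ± 0.24 (SE) (limma-trend unadjusted p = 0.0377). Its neighbour Ubl4a shares 12.8% of its exon bases on the same strand, so part of its reads may belong to that gene. The 2 members with no assigned substrate, Slc45a4 and Slc49a4, had 0.077 ± 0.23 (SE) and 0.23 ± 0.30 (SE), and ran from -0.099 (without WT-B) to 0.19 (without WT-A) and from -0.023 (without 5G2del-A) to 0.40 (without 5G2del-C).

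The 4 members set apart as not transporters included Slc9a3r1 and Slc9a3r2, the scaffold proteins NHERF1 and NHERF2. The others were Slc4a1ap, named as an adaptor protein of the anion exchanger Slc4a1, and Slc7a6os, a gene on the opposite strand to Slc7a6. Slc9a3r1 was the highest at 21 CPM per kb and was at 5.42 ± 0.24 log2 CPM over 5G2del (SD, n = 3) against 5.28 ± 0.28 over WT (SD, n = 4). Slc9a3r2 was at 2.91, 2.69 and 2.43 log2 CPM in the 5G2del libraries (A, B, C), against 2.76, 0.50, 2.30 and 2.25 in the WT libraries (A, B, C, D). WT-B stood far below the rest, and the log2 fold change of 0.72 ± 0.51 (SE) was 0.24 without it. The WT mean of Slc9a3r2 lay below the level for membership, so the gene was kept through its 5G2del values.

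Spread between libraries differed widely among members. The range over the 7 libraries had a median of 1.03 on the log2 scale, 82 members spanned more than 1, and 13 less than 0.5. The median SD was 0.34 over the WT and 0.30 over the 5G2del libraries. The 8 widest were Slc7a8, Slc16a12, Slc2a8, Slc9a3r2, Slc35e3, Slc30a6, Slc6a15 and Slc35d3, with values given above. In all 8, WT-B was the lowest (6) or the highest (2) library. Over all members WT-B was the lowest library for 19.7% and the highest for 23.6%, against 21.4% and 24.3% of all genes above the level. WT-C was lowest for 22.3% of members and 15.6% of those genes. Summed over members, CPM ran from 4027 in WT-C to 4505 in WT-B.

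**Figure D4:**
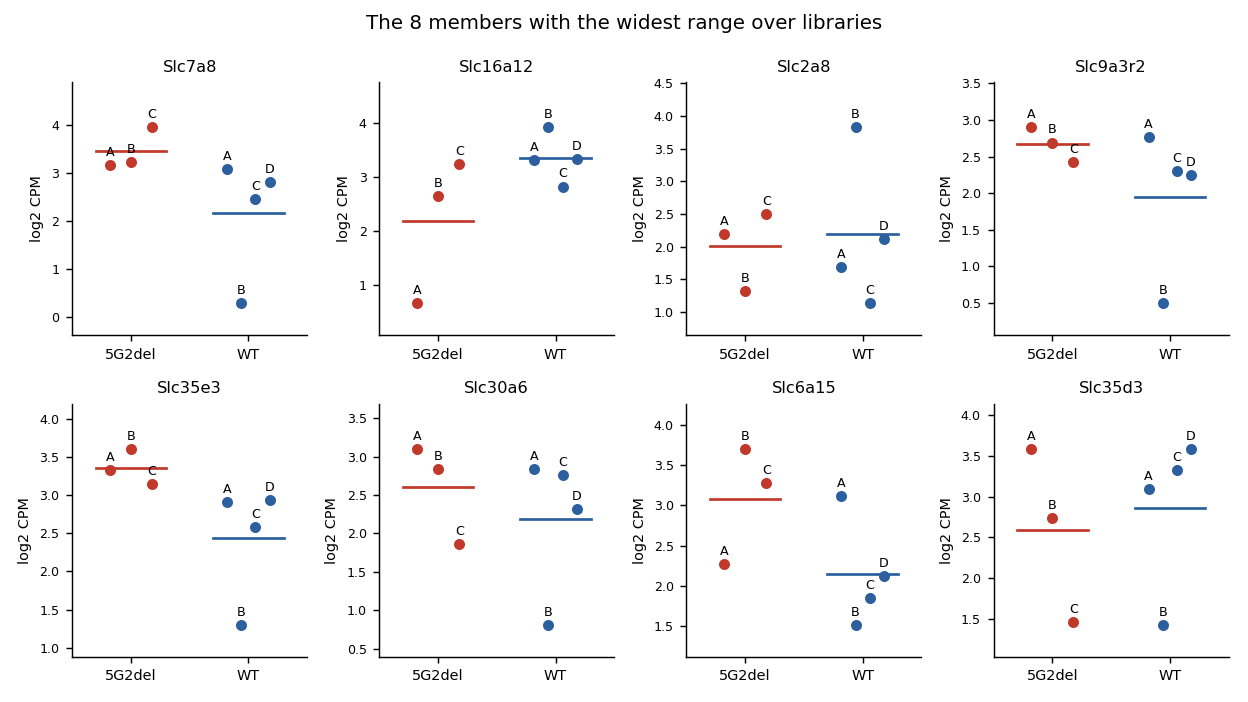
Values of the 8 members with the widest range over the 7 libraries. Points are log2 CPM of single libraries (y axis, scaled to each gene), letters name the library and bars are group means; WT-B is the lowest library for 6 of the 8 genes and the highest for Slc16a12 and Slc2a8.

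Carriers that belong to the same superfamily under other symbols were counted in the same way. Of 36 listed, 31 were measured, 15 with a log2 fold change above 0 and 16 below (median -0.021), and 0 had an unadjusted p under 0.05 in limma-trend in either direction, as did 0 by the adjusted threshold. The best expressed were Ucp2, an uncoupling carrier of the mitochondrial inner membrane, at 44.7 CPM per kb, and Spns2, the exporter of sphingosine 1-phosphate, at 31.5. Their log2 fold changes were -0.044 ± 0.13 (SE) and 0.18 ± 0.15. Of 35 partners and regulators of solute carriers, all measured, 19 were above 0 and 16 below (median 0.051). The best expressed were the ferritin chains Ftl1, at 401 CPM per kb, and Fth1, at 186, with log2 fold changes of 0.41 ± 0.25 and 0.12 ± 0.17.

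One partner gene had an unadjusted p under 0.05. Arrdc3, an arrestin-like adaptor that draws membrane proteins into endosomes, was at 4.22, 3.64 and 3.79 log2 CPM in the 5G2del libraries (A, B, C), against 4.77, 4.73, 5.18 and 4.14 in the WT libraries (A, B, C, D). Only WT-D lay below a 5G2del library, and the log2 fold change was -0.82 ± 0.26 (limma-trend unadjusted p = 0.0101, adjusted p = 0.989). Markers of other cell types also varied. Neutrophil and monocyte markers, 10 of 11 measured and all with a log2 fold change above 0, summed to 257 to 4460.2 CPM in 5G2del and 198 to 1498 in WT, highest in 5G2del-A and WT-A. Some of these markers are at 0 counts in single libraries, among them Lcn2, Ltf and Chil3 in 1 library each. B lineage markers, 4 of 6 measured, summed to 25.9 to 203 CPM in 5G2del and 10.5 to 28.1 in WT. Markers of T and NK cells, 4 of 6 measured, summed to 49.7 to 82.9 CPM in 5G2del and 19.5 to 52.2 in WT. Of these 4, 2 had a log2 fold change above 0 and 2 below, and most of the sum in each 5G2del library was Nkg7. Lck was lower in every 5G2del than in every WT library (-0.50 ± 0.26). Megakaryocyte and platelet markers, all 7 measured, summed to 29.6 to 47.7 CPM in 5G2del and 25.4 to 40.2 in WT. At an unadjusted p under 0.05 by limma-trend, Cd48 (0.99 ± 0.42), Itga2b (0.93 ± 0.40) and Nkg7 (1.16 ± 0.49) were higher in 5G2del, as were Igkc and Treml1, and Il2rb was lower; the last 3 are at 0 counts in 1 or 2 libraries of a group. No marker passed the adjusted threshold. Their part in the values above was not tested. In bulk samples fewer cells of a type and less RNA per cell cannot be told apart.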

How the data were processed

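The values are log2 CPM for 16760 genes in 7 libraries, deposited by the authors in 1 table together with their limma results (a log2 difference, t and B as scores, and p-values with adjusted forms). Per the labels' protocols, Trizol RNA was purified on columns, amplified by the Ovation V2 system and read as paired ends on a NovaSeq. The submitters' processing notes name the aligner STAR (2.7.9a), the counter RSEM (1.3.0), limma (3.50.3) and the builds mm10 and GRCh38; they are silent on the low-gene filter and the scaling. Undoing the log of the deposited values gives RSEM's fractional expected counts, so a count test was not run. Because RSEM shares ambiguous reads between genes and the strand setting is unknown, values of paralogs and overlapping genes are uncertain.

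All 16760 genes were fitted together with limma 3.58.1 in R 4.3.3 (trend in the prior variance, no covariate), which was tested on simulated data; p-values were adjusted by Benjamini-Hochberg over all genes at 0.05. Members are solute carrier symbols with a mean over 2 log2 CPM, grouped into classes by family number. Members, lists and rules were chosen with earlier results of these data known. Genes named are, per class, the highest per kb of GENCODE M21 exon and the lowest p, every member with an unadjusted p under 0.05, the member between Rasa4 and Zan, the 8 widest ranges and the 5 highest levels; others are marked as named after their values were seen, and 1 member that the rule names is not reported here. Classes and lists were described by counts and medians with no set test. Alternatives were limma without the trend, voom weights, quantile normalization, median centring, log2(CPM + 1), other level limits and leaving out each library.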

Additional observations from a re-analysis of the deposited data

Results flagged for a closer look

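Among the 4 WT libraries, Slc37a1, the sugar-phosphate carrier, was at 2.55 log2 CPM in WT-B and between 3.62 and 3.72 in the other 3. The gap took 0.916 of the range over the 4, above Dixon's 95% critical value for 4 libraries. Of the 36 members named by rule this was the 1 past that limit, and chance gives about 1 in 20 groups.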

How the results depend on the processing

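No member passed the adjusted threshold in limma under any setting tried. Over all genes the adjusted calls numbered 1 without the trend, from 0 to 1 with 1 library left out (the 1 without 5G2del-C), and 0 elsewhere. Members lower at an unadjusted p under 0.05, 2 in the values reported, numbered 4 with quantile normalization, 4 with median centring, 4 with only genes over 2 log2 CPM in the fit, and from 2 to 5 with 1 library left out. Members higher by that rule, 6 in the values reported, numbered 2 when members needed a mean over 3 log2 CPM, and from 4 to 9 with 1 library left out. Members without overlap of the groups, 9 with all libraries, ran from 14 to 29 with 1 library left out, where fewer libraries have to be separated. Quantile normalization and median centring moved the median log2 fold change of all genes by less than 0.1, to 0.00811 and 0.00825. Of the 36 members named by rule, Slc16a1, near 0, changed sign to -0.027 with voom weights, -0.017 with quantile normalization and -0.014 with median centring. With 1 library left out, 11 members changed sign at least once, with log2 fold changes of Slc16a1 from -0.21 to 0.21, Slc25a11 from -0.044 to 0.13, Slc25a4 from -0.043 to 0.26, Slc26a11 from -0.053 to 0.51, Slc2a8 from -0.54 to 0.36, Slc30a6 from -0.037 to 0.79, Slc35d3 from -0.76 to 0.31, Slc45a4 from -0.099 to 0.19, Slc48a1 from -0.26 to 0.0086, Slc49a4 from -0.023 to 0.40 and Slc50a1 from -0.093 to 0.36. The cause was not tested. No paired analysis was possible because the columns of the table carry no replicate number of the labels. The libraries were amplified and no molecular tags are named, so depth covers counting error only.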

Other observations

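Of the 78 solute carrier rows at or below the level, 0 passed the adjusted threshold in limma-trend, and 4 were higher and 4 lower in 5G2del at an unadjusted p under 0.05, where 1.68% and 2.24% of all listed genes were. The lowest p was that of Slc38a7, named after its values were seen. Slc38a7, a carrier that brings glutamine out of lysosomes, gave 0.76, 0.96 and 0.77 log2 CPM in the 5G2del libraries (A, B, C), against 1.94, 2.71, 2.41 and 2.97 in the WT libraries (A, B, C, D). The groups did not overlap, and the log2 fold change was -1.67 ± 0.40 (SE; limma-trend unadjusted p = 0.00138, adjusted p = 0.989). With 1 library left out it ran from -1.86 (without WT-A) to -1.52 (without WT-D).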
